A study of Mus musculus with 10 samples.

Results

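The Notch pathway was followed in cultured mouse Wolffian ducts through 10 genes: the receptors Notch1, Notch2, Notch3 and Notch4, the ligands Jag1, Jag2 and Dll1, and the targets Hes1, Hey1 and Heyl. They were chosen by name, and all 10 were found among the 19505 genes named on the array, each with 1 probe set. Wolffian ducts, the embryonic tubes that form the epididymis and vas deferens, were taken from embryos of 16.5 days post-coitum and grown for 72 h at an air-liquid interface. Vehicle ducts (3 arrays) received culture medium, SAG ducts (4 arrays) received 0.5 µM SAG, an agonist of Smoothened that turns hedgehog signalling on, and cyclopamine ducts (3 arrays) received 25 µM cyclopamine, a Smoothened inhibitor. The sample titles carry the word pronephros while the protocols describe Wolffian ducts, the labels give no strain or genotype, and the series calls the replicates biological without saying whether ducts were pooled. Nothing in the sources used here says whether the medium of the vehicle ducts held the solvent of the compounds.

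Notch signalling passes between touching cells. A ligand of the Jagged or Delta family on a cell binds a Notch receptor on its neighbour, ADAM proteases and then gamma-secretase cut the receptor, and its intracellular part enters the nucleus, joins the DNA-binding protein RBPJ and a Mastermind coactivator, and switches on repressor genes of the Hes and Hey families. In embryonic vessels and in smooth muscle, Jag1, Notch3 and Heyl are well known as genes of the mural cells, while Notch1, Notch4, Dll4 and Hey1 are known from endothelium, and in epithelia the pathway takes part in choosing cell fates. Protein cleavage is the step that activates a receptor, so RNA levels show the parts of the pathway and its targets, not its activity.

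The values are log2 signals, on which a difference of 1 is a 2-fold change, and a limma adjusted p under 0.05 over all 22206 probe sets is called passed. Array medians lay between 7.55 and 7.70. Hedgehog targets moved as the labels say: Gli1, Ptch1 and Hhip were higher with SAG and lower with cyclopamine than with vehicle (6 of 6 tests passed). The duct epithelium genes Pax8 and Cdh1 had signal in every group (vehicle means 11.90 and 14.37), and in the whole duct fewer cells of a type and less RNA per cell cannot be told apart. Cyclopamine replicate 2 stood apart from the other cyclopamine arrays on the second principal component (-51.7 against 13.6 and 13.0; 16.6% of the variance). Without it, 2 of the 10 Notch genes passed for cyclopamine against vehicle and 4 for SAG against cyclopamine, the same counts as with it.

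Promoter letters are shown for 3 genes of the pathway whose values differ below: the ligand gene Jag1, which fell with cyclopamine, the repressor gene Hey2, which fell as well, and its relative Hes5, a classical Notch target that did not pass. Each runs 5′ to 3′ from 250 bases before to 10 bases after the start of the gene, from RefSeq. Capitals mark GTGGGAA on either strand, the letters that RBPJ is known to bind.
Jag1 (GRCm38.p6, chr2:137116511-137116770, minus strand): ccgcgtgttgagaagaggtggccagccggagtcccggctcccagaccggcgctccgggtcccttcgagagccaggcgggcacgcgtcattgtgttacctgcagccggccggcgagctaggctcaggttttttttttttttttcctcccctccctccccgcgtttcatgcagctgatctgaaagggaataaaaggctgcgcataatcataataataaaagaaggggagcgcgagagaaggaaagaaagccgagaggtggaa
Hey2 (GRCm38.p6, chr10:30842774-30843033, minus strand): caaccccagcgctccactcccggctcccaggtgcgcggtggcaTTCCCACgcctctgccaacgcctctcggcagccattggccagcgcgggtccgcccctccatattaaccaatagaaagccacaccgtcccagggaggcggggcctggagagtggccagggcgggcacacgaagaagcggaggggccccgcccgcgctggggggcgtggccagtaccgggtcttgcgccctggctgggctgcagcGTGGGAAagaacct
Hes5 (GRCm38.p6, chr4:154960673-154960932, plus strand): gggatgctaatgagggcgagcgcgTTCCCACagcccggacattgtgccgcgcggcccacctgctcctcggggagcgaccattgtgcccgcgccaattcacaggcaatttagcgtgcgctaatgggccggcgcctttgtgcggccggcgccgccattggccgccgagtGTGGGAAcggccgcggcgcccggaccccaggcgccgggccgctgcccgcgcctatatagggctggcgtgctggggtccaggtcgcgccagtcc
Hey2 and Hes5 each held 2 matches to GTGGGAA or its complement, and Jag1 held 0. Over all 32851 RefSeq windows of 300 bases, 6.38% held at least 1 match and 0.256% held 2 or more. Of the 10 genes followed here, 7 had such a window (8 windows), and none of the 7 held GTGGGAA. Of the 42 further pathway genes with a window (56 windows), 7 held it. Of the 8 among them that passed a comparison (9 windows), 1 did, Hey2. Counts here are per gene and percentages per window, and a gene with several windows has more room for a match. The RBPJ variant GTGAGAA, which 4.59% of all windows held, was in 0 of the 7, in 3 of the 42 and in 1 of the 8, Dner. The E-box letters CACGTG (7.15% of windows) were in 0 of the 7, in 5 of the 42 and in 0 of the 8. They can share up to 3 letters with either RBPJ motif. None of the 7 or the 42 held GACCACCCA, which the GLI factors of hedgehog signalling are known to bind (0.253% of windows). It can share up to 2 letters with the E-box. Both strands were searched. A match describes letters and is not a binding site.

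**Figure D1:**
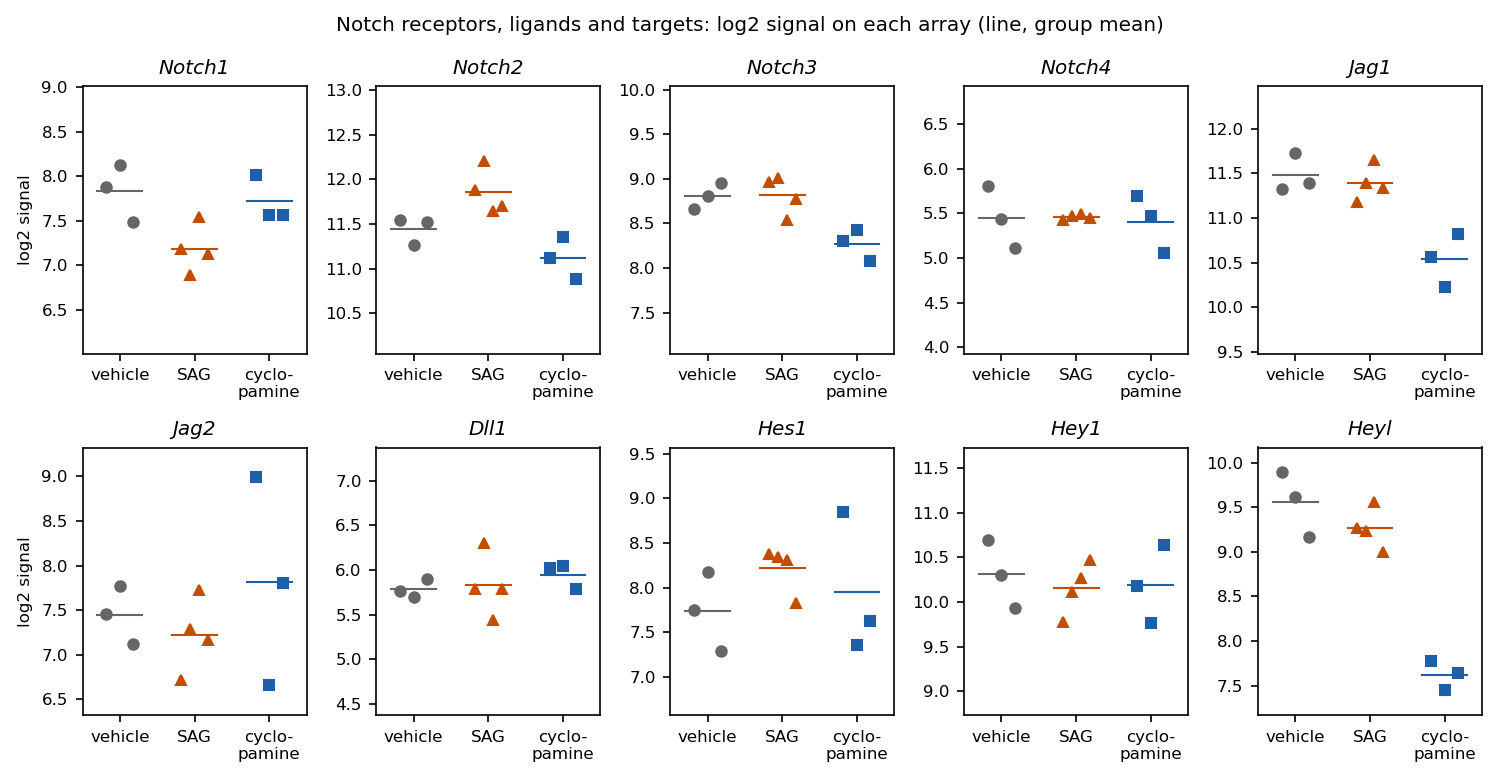
log2 signal (y axis, a span of 3 log2 units in every panel) of the 10 Notch genes on each of 10 arrays, with vehicle as circles, SAG as triangles, cyclopamine as squares and a line at each group mean. Heyl and Jag1 sit lower on the 3 cyclopamine arrays (7.45 to 7.77 and 10.23 to 10.82) than on any vehicle or SAG array, while Hes1 and Jag2 spread widely within the cyclopamine group.

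Among the ligands, Jag1 fell with cyclopamine. Jag1, the Jagged ligand that vessels and smooth muscle use, had signals of 11.33, 11.73 and 11.40 on the vehicle arrays, 11.17, 11.39, 11.65 and 11.34 on the SAG arrays, and 10.56, 10.23 and 10.82 on the cyclopamine arrays. All 3 cyclopamine arrays lay below every other array, and the SAG and vehicle arrays overlapped. The change with cyclopamine against vehicle was -0.95 ± 0.19 (SE), a 1.93-fold lower level (limma adjusted p = 0.0178). SAG ducts held 1.81-fold more Jag1 than cyclopamine ducts (0.85 ± 0.18, limma adjusted p = 0.00966), a comparison that shares the cyclopamine arrays with the one before. With SAG against vehicle Jag1 stood at -0.10 ± 0.18 (95% interval -0.49 to 0.29). The fall with cyclopamine missed the threshold without vehicle replicate 2 (-0.83, adjusted p = 0.0692), with the cyclopamine and vehicle arrays alone in the fit (0.0596) and with unmoderated variances (0.0563), and it lay between -1.09 and -0.80 whichever array was left out.

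The other ligands passed in none of the 3 comparisons. Jag2, the second Jagged ligand, had 7.45, 7.77 and 7.12 with vehicle, 6.71, 7.29, 7.72 and 7.16 with SAG, and 8.99, 6.66 and 7.80 with cyclopamine. The cyclopamine arrays of Jag2 lay both above and below all vehicle arrays (SD 1.17, n = 3), and its change with cyclopamine was 0.37 ± 0.48 (95% interval -0.68 to 1.42). Without cyclopamine replicate 2, the array that stood apart, Jag2 was at -1.17 for SAG against cyclopamine (limma adjusted p = 0.0544), against -0.59 with it (adjusted p = 0.486) and -0.0055 without cyclopamine replicate 1. Dll1, a Delta ligand, ranged from 5.44 to 6.30 over all 10 arrays with overlapping groups, and the 95% interval of its change with cyclopamine ran from -0.27 to 0.60.

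Of the receptors, Notch2 and Notch3 differed between the SAG and cyclopamine ducts, and none of the 4 passed against vehicle. Notch2, a receptor of many embryonic tissues that the kidney needs for its tubules, had 11.54, 11.27 and 11.52 with vehicle, 11.88, 12.21, 11.65 and 11.70 with SAG, and 11.12, 11.35 and 10.89 with cyclopamine. All SAG arrays lay above all vehicle and cyclopamine arrays, and the vehicle and cyclopamine arrays overlapped. Notch2 was 1.67-fold higher with SAG than with cyclopamine (0.74 ± 0.17, limma adjusted p = 0.0170), against 0.42 ± 0.17 for SAG over vehicle (adjusted p = 0.396) and -0.32 ± 0.18 for cyclopamine over vehicle (adjusted p = 0.375). The call for SAG against cyclopamine ended without cyclopamine replicate 1 (0.74, adjusted p = 0.0530) or 3 (0.62, adjusted p = 0.0723).

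Notch3, the receptor of mural and smooth muscle cells, had 8.66, 8.80 and 8.96 with vehicle, 8.97, 9.01, 8.53 and 8.77 with SAG, and 8.30, 8.43 and 8.08 with cyclopamine. The 3 cyclopamine arrays lay below every vehicle and SAG array, and vehicle and SAG overlapped. It was 1.47-fold higher with SAG than with cyclopamine (0.55 ± 0.15, limma adjusted p = 0.0415). The change with cyclopamine against vehicle was -0.54 ± 0.16 and did not pass (adjusted p = 0.0949), and with SAG it was 0.01 ± 0.15. The Notch3 call ended when any array but SAG replicate 3 or cyclopamine replicate 2 was left out (adjusted p 0.0510 to 0.147; difference 0.46 to 0.65 over all 10 such fits). It also ended with the SAG and cyclopamine arrays alone in the fit (0.0742), an intensity-dependent prior (0.0625), array weights (0.0521), unmoderated variances (0.0631) and the replicate block (0.111).

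Notch1, the receptor of endothelium and many epithelia, had 7.87, 8.13 and 7.49 with vehicle, 7.18, 6.90, 7.54 and 7.12 with SAG, and 8.01, 7.57 and 7.57 with cyclopamine. SAG replicate 3 lay above vehicle replicate 3, and all SAG arrays lay below all cyclopamine arrays. The change with SAG was -0.64 ± 0.20 (95% interval -1.09 to -0.20) and did not pass over all probe sets (limma adjusted p = 0.236), nor did SAG against cyclopamine (-0.53 ± 0.20, adjusted p = 0.130). Notch4, the endothelial receptor, ranged from 5.05 to 5.80 and reached below 5.19, the level under which 25% of mean probe-set signals lie and where arrays compress differences. Its 95% interval was -0.40 to 0.42 for SAG against vehicle and -0.48 to 0.40 for cyclopamine against vehicle.

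Among the targets, Heyl fell with cyclopamine and Hes1 and Hey1 did not pass. Heyl, a Hey-family repressor of vascular smooth muscle and pericytes, had 9.89, 9.61 and 9.17 with vehicle, 9.27, 9.23, 9.56 and 9.0 with SAG, and 7.77, 7.45 and 7.65 with cyclopamine. The highest cyclopamine array lay more than 1 log2 unit below the lowest of the other arrays, and the vehicle and SAG arrays overlapped. Heyl fell by 1.93 on the log2 scale with cyclopamine (SE 0.20, 3.82-fold, limma adjusted p = 0.000672), and its level with SAG was 3.12-fold that with cyclopamine (1.64 ± 0.19, limma adjusted p = 0.000312). With SAG against vehicle it was at -0.29 ± 0.19 (95% interval -0.71 to 0.13). Both Heyl calls held in each of the 10 fits that left out an array (-2.13 to -1.77 against vehicle) and in each of 9 other settings.

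Hes1, the repressor most widely used as a readout of Notch, had 7.75, 8.17 and 7.29 with vehicle, 8.38, 8.34, 8.32 and 7.83 with SAG, and 8.85, 7.36 and 7.63 with cyclopamine. The groups overlapped, with cyclopamine replicate 1 the highest of all arrays and cyclopamine replicate 2 within the vehicle range. Its changes were 0.48 ± 0.33 with SAG (95% interval -0.26 to 1.21) and 0.21 ± 0.36 with cyclopamine (-0.58 to 0.99), so a change of about 2-fold with SAG lies inside the interval. Hey1, a Hey-family repressor of vessels and heart, ranged from 9.78 to 10.70 with all groups overlapping, and stood at -0.15 ± 0.25 with SAG and -0.12 ± 0.26 with cyclopamine.

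Counted together, 0 of the 10 genes passed for SAG against vehicle by limma, where 0.73% of all probe sets passed (0.45% higher, 0.279% lower). At an unadjusted p under 0.05 there were 2, Notch1 and Notch2, and with unmoderated variances 0 passed. The share of all probe sets at that unadjusted level was not counted. For cyclopamine against vehicle, 2 fell (Jag1 and Heyl) and 0 rose, where 5.12% of probe sets passed, 2.95% lower and 2.17% higher. For SAG against cyclopamine, 4 were higher with SAG and 0 lower, where 11.3% passed, 5.42% higher and 5.92% lower. The groups did not overlap for 1 of 10 genes for SAG against vehicle (12.9% of probe sets), for 3 for cyclopamine against vehicle (23.1%) and for 5 for SAG against cyclopamine (21.2%). Median changes of the 10 genes were -0.04, -0.12 and 0.16 in these comparisons, beside 0.01, 0.02 and 0.01 over all genes. In none of the 10 did the 3 groups separate fully with vehicle between SAG and cyclopamine, a pattern that 2.36% of probe sets held. A test of 3 or 4 arrays a group leaves wide intervals, so a gene that did not pass may still differ.

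**Figure D2:**
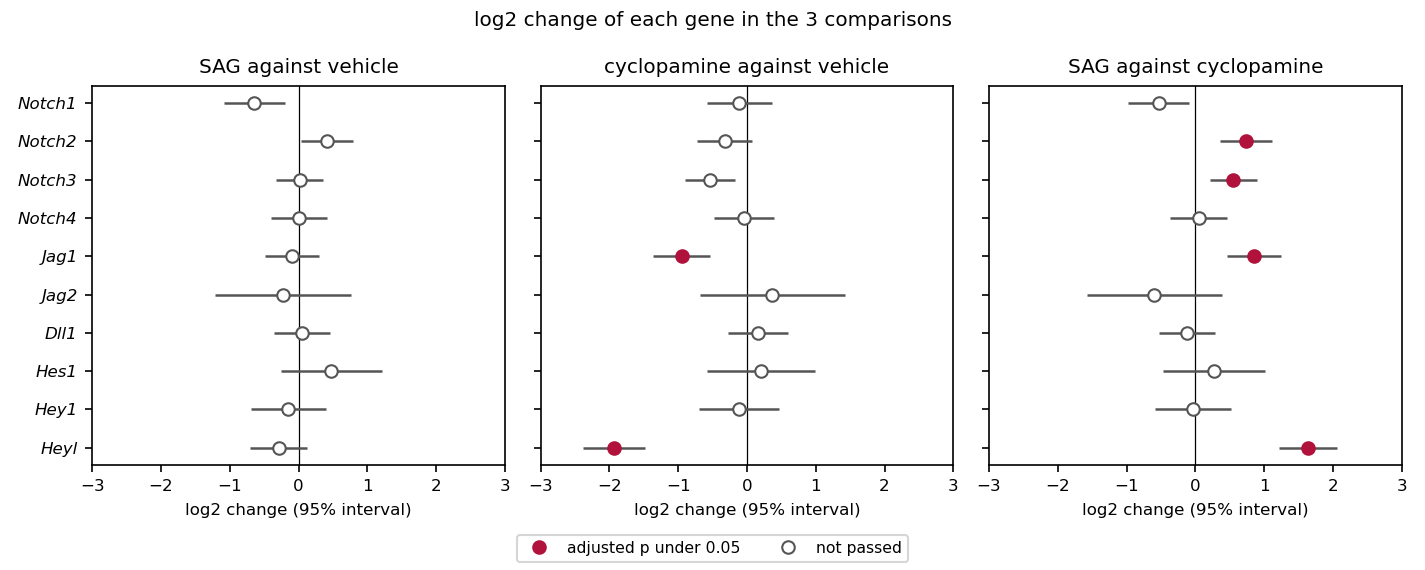
log2 change (x axis) with its 95% interval for each Notch gene in each of the 3 comparisons; filled points passed an adjusted p of 0.05. Heyl (-1.93) and Jag1 (-0.95) are the filled points for cyclopamine against vehicle, and the SAG against vehicle panel has none.

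Markers of cell types that a whole duct can hold were measured on the same arrays. Of 14 smooth muscle markers, 11 fell with cyclopamine and 0 rose (median -2.18; Cnn1, calponin, at -5.04 and Acta2, smooth muscle alpha actin, at -2.32), and their summed linear signal was 57392 to 86934 on cyclopamine arrays, 230678 to 272684 on vehicle arrays and 212594 to 251945 on SAG arrays. Of 7 pericyte markers, 1 fell (Cspg4, the NG2 proteoglycan, -2.29) and 1 rose (Anpep, 1.34), and 6 had a negative change (median -1.24). Their sums overlapped, at 18771 to 30215 with cyclopamine, 23691 to 29368 with vehicle and 21926 to 33916 with SAG. The mean log2 of the pericyte list was 9.57 to 10.49 with cyclopamine, 10.67 to 11.18 with vehicle and 10.59 to 11.19 with SAG. Of 12 mesenchyme markers, 8 fell with cyclopamine (median -0.81; sums 401637 to 428743, against 666167 to 702568 with vehicle and 731001 to 862795 with SAG). Heyl at -1.93, Jag1 at -0.95 and Notch3 at -0.54 thus fell or lay lower on arrays where the smooth muscle median was -2.18, and the part of these cells in the Notch values was not tested.

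Of 10 endothelial markers, 1 fell with cyclopamine (Kdr, a VEGF receptor, -1.44) and 9 did not pass (median -0.67). Their summed signal was 7126 to 15634 with cyclopamine, 14268 to 26474 with vehicle and 30996 to 41114 with SAG, and the mean of the list relative to vehicle ran from -1.87 on cyclopamine replicate 2 to -0.12 on cyclopamine replicate 1. For SAG against vehicle 0 of the 10 passed and 6 had a negative change (median -0.05). The mean log2 of the endothelial list overlapped there, at 9.52 to 9.88 with SAG and 8.91 to 9.97 with vehicle. Notch1, Notch4, Hey1 and Dll4, all known from endothelium, passed in none of the 3 comparisons. Jag1, which vessels use as well as smooth muscle, and Hey2, a repressor of arteries and heart, did pass. Both fell with cyclopamine (-0.95 and -1.78, limma adjusted p = 0.0178 and 0.00474). With cyclopamine against vehicle Notch1 stood at -0.11, Notch4 at -0.04, Hey1 at -0.12 and Dll4 at -2.81 (limma adjusted p = 0.107 for Dll4). Of 14 duct epithelium markers, 6 rose with cyclopamine and 2 fell with SAG, and all 14 had a negative change with SAG (median -1.19), the direction of the Notch1 value with SAG. With cyclopamine 12 of the 14 had a positive change (median 1.09), where Notch1 stood at -0.11 ± 0.21. Their sums were 26687 to 42103 with SAG, 51519 to 93558 with vehicle and 144818 to 236448 with cyclopamine. The part of the epithelial share in the Notch1 value was not tested.

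**Figure D3:**
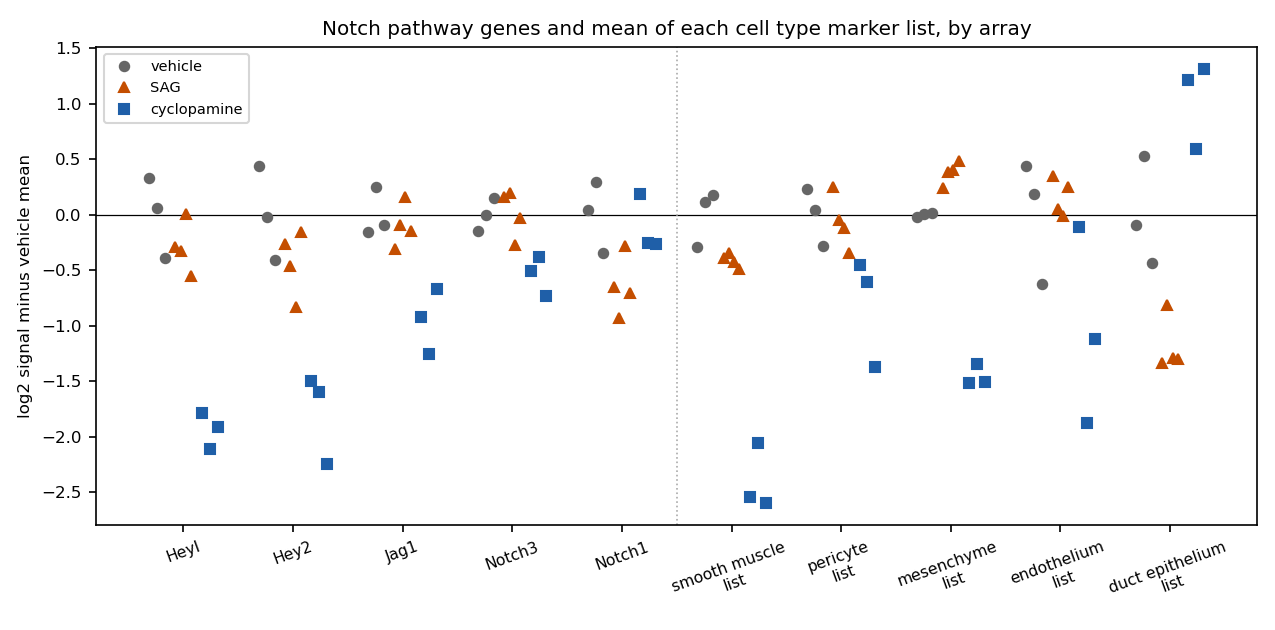
log2 signal minus the vehicle mean (y axis) on each array for 5 Notch pathway genes and for the mean of each marker list, with vehicle as circles, SAG as triangles and cyclopamine as squares. On cyclopamine arrays Heyl lies at -2.11 to -1.78 and the smooth muscle list at -2.60 to -2.06, while the duct epithelium list lies at 0.59 to 1.32.

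The rest of the pathway was taken from a list of 52 further genes, of which 49 were measured under a name. None of the 49 passed for SAG against vehicle by limma, where 0.73% of all probe sets passed. At an unadjusted p under 0.05 there were 3, and with unmoderated variances 0 passed. The share of all probe sets at that unadjusted level was not counted, so the 3 have no background beside them. For cyclopamine against vehicle 6 fell and 0 rose (background 2.95% lower and 2.17% higher), and for SAG against cyclopamine 8 were higher with SAG and 2 lower (5.42% and 5.92%). Their median changes were -0.03, 0.05 and -0.05. The genes that passed were other ligands, regulators of receptor turnover, coactivators and a target. Of 9 protease genes that cut the receptor and 5 genes of its sugar transfer, 0 passed in any comparison. With 0.73%, 5.12% and 11.3% of all probe sets passing in the 3 comparisons, lists this short can hold 0 calls without differing from the rest. Rbpj, the DNA-binding partner of every Notch receptor, was at 0.26 ± 0.18 with cyclopamine and 0.09 ± 0.17 with SAG, a value named for its role after it had been seen.

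Hey2, a Hey-family repressor of arteries and heart whose promoter letters are printed above, had 9.45, 8.99 and 8.60 with vehicle, 8.75, 8.55, 8.18 and 8.85 with SAG, and 7.51, 7.42 and 6.77 with cyclopamine. Every cyclopamine array lay below every other array, as for Heyl. Hey2 fell 3.44-fold with cyclopamine (-1.78 ± 0.27, limma adjusted p = 0.00474), a call kept in each fit that left out an array, and was 2.55-fold higher with SAG than with cyclopamine (limma adjusted p = 0.00522). Hes5, which holds the same letters as often in its window, was at 0.19 ± 0.18 with cyclopamine and 0.36 ± 0.17 with SAG and did not pass. It was chosen for this comparison after its values had been seen.

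Among the other ligands, Dner, a transmembrane Delta-like protein known from neurons, had 7.14, 7.46 and 5.89 with vehicle, 6.23, 7.65, 6.76 and 7.08 with SAG, and 4.23, 4.34 and 4.35 with cyclopamine. Its cyclopamine signals lay below 5.19, in the compressed range, so its fall (-2.52 ± 0.41, limma adjusted p = 0.00667) may be understated. Of 5 neuron and glia markers, 0 passed with cyclopamine (median -0.82), with sums of 421 to 3126 on cyclopamine arrays, 888 to 4204 on vehicle arrays and 589 to 2079 on SAG arrays. Dlk1, an imprinted Delta-like protein, fell 1.56-fold with cyclopamine (limma adjusted p = 0.0398), but that call ended when any array other than SAG replicate 2, SAG replicate 3 or cyclopamine replicate 2 was left out (adjusted p 0.0522 to 0.132). That call was also lost in 5 of 9 other settings, among them quantile normalization (limma adjusted p = 0.0563) and each array centred on its median (0.0625). The Dlk1 difference between SAG and cyclopamine (0.74 ± 0.14, limma adjusted p = 0.00724) held in all 10 fits that left out an array. Dll4, the endothelial Delta ligand, had 9.95, 5.80 and 9.0 with cyclopamine against 11.76, 11.50 and 9.91 with vehicle, with overlap (-2.81 ± 0.89, limma adjusted p = 0.107), a value that moved to -3.66 without cyclopamine replicate 1 (adjusted p = 0.0494) and to -1.59 without cyclopamine replicate 2 (0.136), and its lowest value fell on the array with the lowest endothelial list mean; it was named after its values were seen.

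Of 13 regulators of Notch turnover and of ligand uptake, 3 fell with cyclopamine, where 2.95% of all probe sets passed lower. Higher with SAG than with cyclopamine were 5 of the 13, where 5.42% of all probe sets passed higher. Dtx1, a Deltex E3 ligase that binds the Notch intracellular part, had 9.65, 10.06 and 9.71 with vehicle, 9.70, 9.86, 9.69 and 9.75 with SAG, and 8.22, 9.03 and 8.35 with cyclopamine. Dtx1 fell 2.42-fold with cyclopamine (limma adjusted p = 0.00683) and its call held in every fit that left out an array. Numbl, a relative of the Notch inhibitor Numb, fell 2.70-fold with cyclopamine (-1.43 ± 0.27, limma adjusted p = 0.0130), and missed the threshold without vehicle replicate 3 (-1.29, adjusted p = 0.0520).

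Dtx4, another Deltex ligase, had 11.07, 10.90 and 11.16 with vehicle, 11.76, 11.82, 11.88 and 11.27 with SAG, and 10.37, 10.39 and 10.34 with cyclopamine. The 3 groups did not overlap, with SAG highest and cyclopamine lowest, and 2.36% of all probe sets separated fully in this or the reverse order. The Dtx4 difference between SAG and cyclopamine was 1.32 ± 0.16 (2.49-fold, limma adjusted p = 0.000381), kept in all 10 fits that left out an array. Against vehicle, Dtx4 fell by 0.67 on the log2 scale with cyclopamine (limma adjusted p = 0.0459), a call lost in 9 of those 10 fits and kept only without SAG replicate 4 (adjusted p 0.0173 to 0.136), and it stood at 0.64 ± 0.16 with SAG, which passed without SAG replicate 4 (0.78, adjusted p = 0.0358). Dtx3 and Neurl1a, a ligase of ligand uptake, were higher with SAG than with cyclopamine by 0.78 ± 0.20 and 1.04 ± 0.25 (limma adjusted p = 0.0306 and 0.0218). For Dtx3 the threshold was missed when SAG replicate 1, 2 or 3 was dropped, and likewise for cyclopamine replicates 1 and 3 (adjusted p 0.0501 to 0.122). For Neurl1a this held for SAG replicates 3 and 4 and cyclopamine replicates 1 and 3 (0.0564 to 0.0694). Against vehicle neither passed with cyclopamine (Neurl1a -0.84, limma adjusted p = 0.112; Dtx3 -0.73, 0.0849). Without cyclopamine replicate 2 both passed (Neurl1a -1.17, adjusted p = 0.00882; Dtx3 -0.89, 0.0425), and at the other end of the fits that left out an array they stood at -0.53 and -0.58.

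Of 10 nuclear factors, 2 were lower with SAG than with cyclopamine, where 5.92% of all probe sets passed lower. Maml2 and Maml3, Mastermind proteins of the Notch nuclear complex, differed by -0.62 ± 0.14 and -0.63 ± 0.13 (limma adjusted p = 0.0151 and 0.0120), and the other 8 did not pass, among them the third Mastermind gene, Maml1 (0.41, adjusted p = 0.544), named after its value was seen. Maml2 missed the threshold without cyclopamine replicate 3 (-0.60, adjusted p = 0.0512), and both missed it with the replicate number as a block (0.0601 and 0.0551). Mean signals of Maml3 with vehicle (5.07) and SAG (4.70) were in the same range below 5.19, so its difference may be larger. The groups of Maml3 did not overlap, in the reverse order to Dtx4: 4.55 to 4.87 with SAG, 4.90 to 5.30 with vehicle and 5.32 to 5.34 with cyclopamine.

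**Figure D4:**
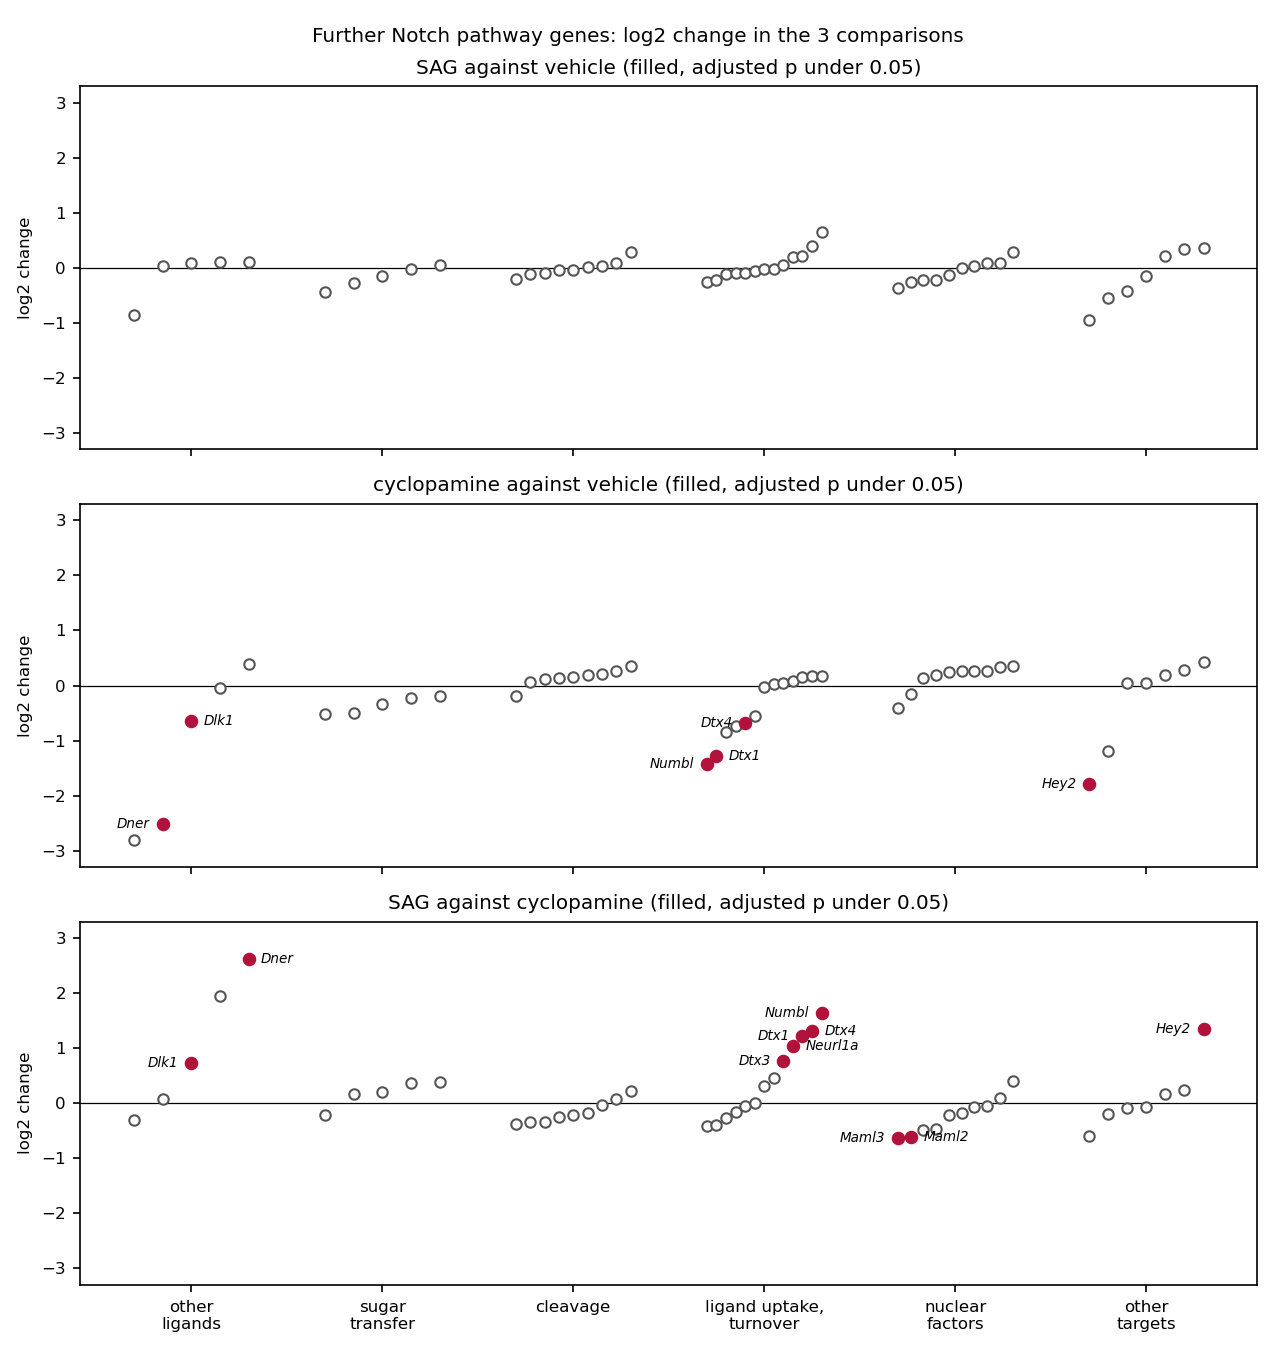
log2 change (y axis) of 49 further Notch pathway genes in 6 role groups (x axis), with a panel for each of the 3 comparisons; filled, named points passed an adjusted p of 0.05. The SAG against vehicle panel has 0 filled points, the cyclopamine panel 6, all below 0, and the lowest panel 10.

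For the 4 Notch genes that passed a comparison, the genes of most similar course were sought as the smallest root mean square difference between log2 profiles over the 10 arrays, each centred on its own mean, among 19504 others. For Heyl these were Mamld1 (0.265), Ccna2, cyclin A2 (0.266), and Tspan18, a tetraspanin (0.268). For Jag1 they were Ppp1r12a, a subunit of myosin phosphatase (0.157), Smarca2, a chromatin remodelling ATPase (0.158), and Fkbp7 (0.167). For Notch2 they were Scai (0.0995), Uba7 (0.126) and Fam126a (0.149), and for Notch3 Arhgap10 (0.0993), 6430548M08Rik (0.103) and Ccdc8 (0.104). The profiles of the 4 Notch genes themselves had SDs of 0.89, 0.48, 0.38 and 0.31 for Heyl, Jag1, Notch2 and Notch3. Treatment moves the arrays of a group together, so a small difference here describes a shared course over the 3 groups.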

How the data were processed

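RNA from 10 duct cultures was measured on single-colour Affymetrix arrays; per the labels' protocols, 100 ng of RNA with an integrity number of at least 7 was labelled with the GeneChip WT Plus kit. The deposited values are log2 signals of 22206 probe sets (2.95 to 18.7; the log2 base was inferred from this range). The sources used here do not give summarization, normalization, software or build; array quartiles were nearly equal (lower 5.06 to 5.29, upper 10.7 to 10.8). The platform's annotation gave 19572 probe sets 1 symbol, 0 several and left 2634 unnamed here; where a gene has several probe sets the brightest stands for it. Groups came from the sample titles.

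A mean per group was fitted to all 10 arrays with limma 3.58.1 in R 4.3.3 (7 residual degrees of freedom, 3.70 prior), with two-sided tests, no filter and p-values adjusted by Benjamini-Hochberg across every probe set. Errors beside changes are moderated standard errors, intervals are 95%, and the small number of arrays limits precision. Fits were tested on simulated data. The genes and lists were chosen with earlier results of these data known. Named were all 10 genes, every further pathway gene that passed, 3 nearest profiles for each gene that passed, up to 3 markers a list, and genes said to be chosen later. The macrophage list (9 measured) had 1 rise with cyclopamine (Itgam, 2.70) and 0 falls, while 5 of the 9 changes were negative (median -0.03). It had 0 calls with SAG against vehicle and 1 for SAG against cyclopamine, higher with SAG. Promoter letters came from RefSeq (GRCm38.p6): 7 of 10 genes and 42 of 52 further genes matched, and Hes1, Hey1 and Heyl are named only.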

Additional observations from a re-analysis of the deposited data

Results flagged for a closer look

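In the SAG group, the Hes1 signal of replicate 4 (7.83) stood apart from the other 3 arrays (8.32 to 8.38), with a gap to the nearest of 0.885 of the group's range, above Dixon's 95% critical value for 4 arrays. The SAG group of the 10 Notch genes was examined this way, the groups of 3 arrays were not, and chance alone marks about 1 in 20 groups. The 3 vehicle arrays ran from 7.29 to 8.17.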

How the results depend on the processing

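Calls of Heyl were kept in all alternatives run. The count of Notch genes that fell with cyclopamine was 1, in place of 2, with the cyclopamine and vehicle arrays alone in the fit, with unmoderated variances, with an adjusted p under 0.01 and with the replicate block, and 1 to 2 with an array left out; for SAG against cyclopamine 4 became 2 at an adjusted p under 0.01, 3 (without Notch3) with the 2 groups alone, an intensity-dependent prior, array weights, unmoderated variances or the replicate block, and 2 to 4 with an array left out. Of further pathway genes, 6 became 3 for cyclopamine against vehicle with the 2 groups alone, with unmoderated variances and at 0.01 (4 to 7 with an array left out), 10 became 6 for SAG against cyclopamine at 0.01 (7 to 11), and 0 became 0 to 1 for SAG against vehicle. Dlk1, Dtx4 and Numbl were the genes missed where 6 became 3. The 6 became 5 with quantile normalization (Dlk1 missed) and 4 with each array centred on its median (Dlk1 and Dtx4 missed). They became 7 with array weights and 9 at an adjusted p under 0.10. Labels give replicates 1 to 3 in every group, but deviations of same-numbered arrays correlated at -0.19 to 0.24 (9 pairs; -0.22 to 0.23 for 24 other pairs) and not every array did so best with its own number, so the numbers were not taken to pair cultures. Under the replicate block 1 Notch gene fell with cyclopamine (Jag1 missed, adjusted p = 0.0531), 3 were higher with SAG than with cyclopamine (Notch3 missed, 0.111), and 6 and 7 further pathway genes passed in those comparisons: against vehicle 5 of the 6 main calls (Dlk1 missed) and Nrarp (-1.19, adjusted p = 0.0478; named after its value was seen), and against cyclopamine 7 of 10 (Neurl1a, Maml2 and Maml3 missed).

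The sign turned only for values of the 10 genes that had not passed (4 times with another setting, 21 times with an array left out), and the cause was not tested. For SAG against vehicle these were Notch3 with array weights (-0.014) and, with quantile normalization, Notch4 (-0.051) and Dll1 (-0.0027); for SAG against cyclopamine it was Hey1 with each array centred on its median (0.017). With an array left out, the change for SAG against vehicle ran from -0.059 to 0.11 for Notch3, -0.16 to 0.18 for Notch4, -0.18 to 0.027 for Jag1, -0.11 to 0.17 for Dll1 and -0.34 to 0.041 for Hey1. For cyclopamine against vehicle it ran from -0.28 to 0.036 for Notch1, -0.21 to 0.13 for Notch4, -0.22 to 0.95 for Jag2, -0.24 to 0.50 for Hes1 and -0.34 to 0.10 for Hey1. For SAG against cyclopamine it ran from -0.13 to 0.19 for Notch4, -0.28 to 0.011 for Dll1, -0.021 to 0.72 for Hes1 and -0.25 to 0.19 for Hey1.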
